A study of Mus musculus with 5 samples.

Results

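The 39 protein-coding Hox genes were followed through every library of a mouse prostate RNA-seq series. They were taken by name, as all genes whose symbol is Hoxa, Hoxb, Hoxc or Hoxd followed by a number, and are 39 of the 51912 genes listed for each library. The rule itself uses names and no expression value. HoxA contributes 11 members, HoxB 10, HoxC 9 and HoxD 9.

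The series compares 2 tamoxifen control libraries with 3 Ghr deletion libraries, which its design text calls biological replicates. All 5 male mice were 7 months old, carried Ghrflox/flox alleles together with SV40 C3(1) T-antigen+/0, and received 250 mg/kg tamoxifen on each of 5 days. Ghr encodes the growth hormone receptor, and the transgene places the SV40 T antigen, an oncoprotein, under the C3(1) promoter, which is active in the prostate. Tissue labelled dorsolateral prostate was collected 1 month after the last dose. The deletion mice also carried ROSA26Cre-ERT2+/0, a Cre recombinase that is driven from a ubiquitously active locus and is switched on by tamoxifen. The genotype given for the controls names no Cre, so the presence of Cre and the deletion of Ghr cannot be told apart.

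Hox genes encode transcription factors that bind DNA through a homeodomain. They lie in 4 clusters, and their order along each cluster follows the order in which they are used along the body axis, from low-numbered, anterior genes to high-numbered, posterior ones. Genes that carry the same number in different clusters are paralogs and form a paralog group. In the male urogenital tract, Hoxa10, Hoxa13 and Hoxd13 are known for roles in forming the accessory glands, and Hoxb13 is known as a marker of prostate epithelium. Adult tissues keep much of their Hox pattern, so that it reads as a record of position.

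Total expected counts ranged from 13812454 to 47656212 per library. Levels are given in 2 units: TPM, which is per transcript length and serves to compare genes within a library, and CPM scaled with TMM factors, which serves to compare libraries for 1 gene. Ghr had 14.4 and 31.3 CPM in control replicates 1 and 2 and 8.13, 20.9 and 12.1 CPM in deletion replicates 1, 2 and 3, so the groups overlapped. Pbsn, the gene of the prostate secretory protein probasin, had 411 counts in control replicate 1 but 1, 4, 8 and 3 counts in the other libraries, in the same order. Of 8 seminal vesicle genes none was at 0 in any library. They summed to 718840 and 18549 CPM in control replicates 1 and 2 and to 274350, 341370 and 8845.5 CPM in deletion replicates 1, 2 and 3. These libraries are bulk tissue, in which fewer cells of a type and less RNA per cell cannot be told apart.

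The promoters of 4 members are shown because they belong to genes at different ends of the level range: Hoxd8, the member with the highest TPM share in every library, Hoxb8 from the evenly expressed HoxB cluster, and the posterior genes Hoxa13 and Hoxd13, both lowest in deletion replicate 2. Each is the 250 bases before the RefSeq transcription start on GRCm38.p6, written 5′ to 3′ on the strand of the gene. Capitals mark matches, on either strand, to a Hox-Pbx composite motif (TGATNNAT), the nuclear receptor element AGGTCA or the CCAAT box. They also mark TATA box matches (TATAAA). GENCODE annotates no exon in any of these windows. That of Hoxd8 lies in an intron of Hoxd3os1 on the other strand, and no gene is annotated in those of Hoxb8, Hoxa13 and Hoxd13. The positions are chr2:74704365-74704614 (plus strand) for Hoxd8, chr11:96281655-96281904 (plus) for Hoxb8, chr6:52260881-52261130 (minus) for Hoxa13 and chr2:74667975-74668224 (plus) for Hoxd13.
Hoxd8: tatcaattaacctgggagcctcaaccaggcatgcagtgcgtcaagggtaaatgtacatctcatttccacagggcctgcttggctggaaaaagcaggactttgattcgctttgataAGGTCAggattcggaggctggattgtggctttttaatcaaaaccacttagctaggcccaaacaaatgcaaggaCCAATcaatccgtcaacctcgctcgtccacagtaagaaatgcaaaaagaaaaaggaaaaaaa
Hoxb8: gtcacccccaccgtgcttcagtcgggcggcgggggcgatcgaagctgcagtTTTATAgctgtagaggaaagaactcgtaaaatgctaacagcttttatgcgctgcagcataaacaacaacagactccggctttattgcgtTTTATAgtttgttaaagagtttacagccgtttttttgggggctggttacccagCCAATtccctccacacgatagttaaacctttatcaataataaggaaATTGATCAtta
Hoxa13: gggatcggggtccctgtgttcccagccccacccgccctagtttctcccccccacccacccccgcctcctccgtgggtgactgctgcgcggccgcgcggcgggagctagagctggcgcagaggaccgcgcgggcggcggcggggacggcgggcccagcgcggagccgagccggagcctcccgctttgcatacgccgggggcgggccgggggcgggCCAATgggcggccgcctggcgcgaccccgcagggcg
Hoxd13: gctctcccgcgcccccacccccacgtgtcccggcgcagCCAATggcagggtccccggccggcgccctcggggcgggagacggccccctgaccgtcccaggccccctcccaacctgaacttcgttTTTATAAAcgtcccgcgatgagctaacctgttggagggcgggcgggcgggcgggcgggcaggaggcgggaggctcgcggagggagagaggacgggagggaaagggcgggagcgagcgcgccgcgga

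The Hoxd8 window held 1 AGGTCA match, 135 bases before the start, and 1 CCAAT match at 62 bases. The Hoxb8 window held a Hox-Pbx match on the reverse strand 11 bases before the start, a CCAAT match at 57 bases and 2 TATA matches on the reverse strand. In the Hoxa13 window, 80% G and C, the only match was a CCAAT box at 36 bases. The Hoxd13 window, 74.4% G and C, held a CCAAT box at 212 bases and 2 TATA matches that overlap each other on opposite strands. Promoters were found for 22 members, with 24 windows in all. Of these 24 windows, 58.3% held CCAAT, against 33.8% of 32851 promoters of all genes, and 25% held AGGTCA, against 14% (4607 promoters). A Hox-Pbx match was in 16.7%, against 7.68%, and a TATA match in 16.7%, against 12.4%. Each of these 2 shares is 4 windows, and 2 of the 4 with a Hox-Pbx match belong to members with too few counts to be tested. By GENCODE, the windows of Hoxa3 and Hoxc4 lay wholly in exons of the same genes. The median G and C content was 58.6% against 52.4%, and the median ratio of observed to expected CpG was 0.721 against 0.373. These are matches of letters, and no binding was measured.

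The libraries held transcripts of the HoxB and HoxD clusters, a few of HoxA, and next to none of HoxC. Whether all 5 hold the same tissue is in doubt: the 7 prostate lobe markers summed to 4443 CPM in control replicate 1 and to at most 12.97 CPM in the others, so a Hox pattern here cannot be assigned to 1 organ. Hoxd8 had the highest TPM of all members in 5 of 5 libraries, followed by Hoxb9 or Hoxb7. Genes of paralog groups 4 to 8, the middle of the clusters, made up 62.5% to 71.3% of a library's summed Hox TPM. The posterior groups 9 to 13 made up 27.3% and 24.4% among controls, against 25.8%, 19.9% and 24.7% with the deletion. Deletion replicate 2 had the lowest posterior share, and the other 4 libraries lay close together. The mean posterior share was 25.9% ± 2.05 (SD, n = 2) in controls and 23.5% ± 3.17 (SD, n = 3) in deletion libraries, and the groups overlapped. Most of that share came from group 9, at 15.0% to 20.9%. Groups 10 to 13, taken separately after their values were seen, held 6.48% and 9.45% among controls and 9.53%, 1.74% and 6.02% in the deletion libraries. Deletion replicate 2 was the lowest here too.

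**Figure D1:**
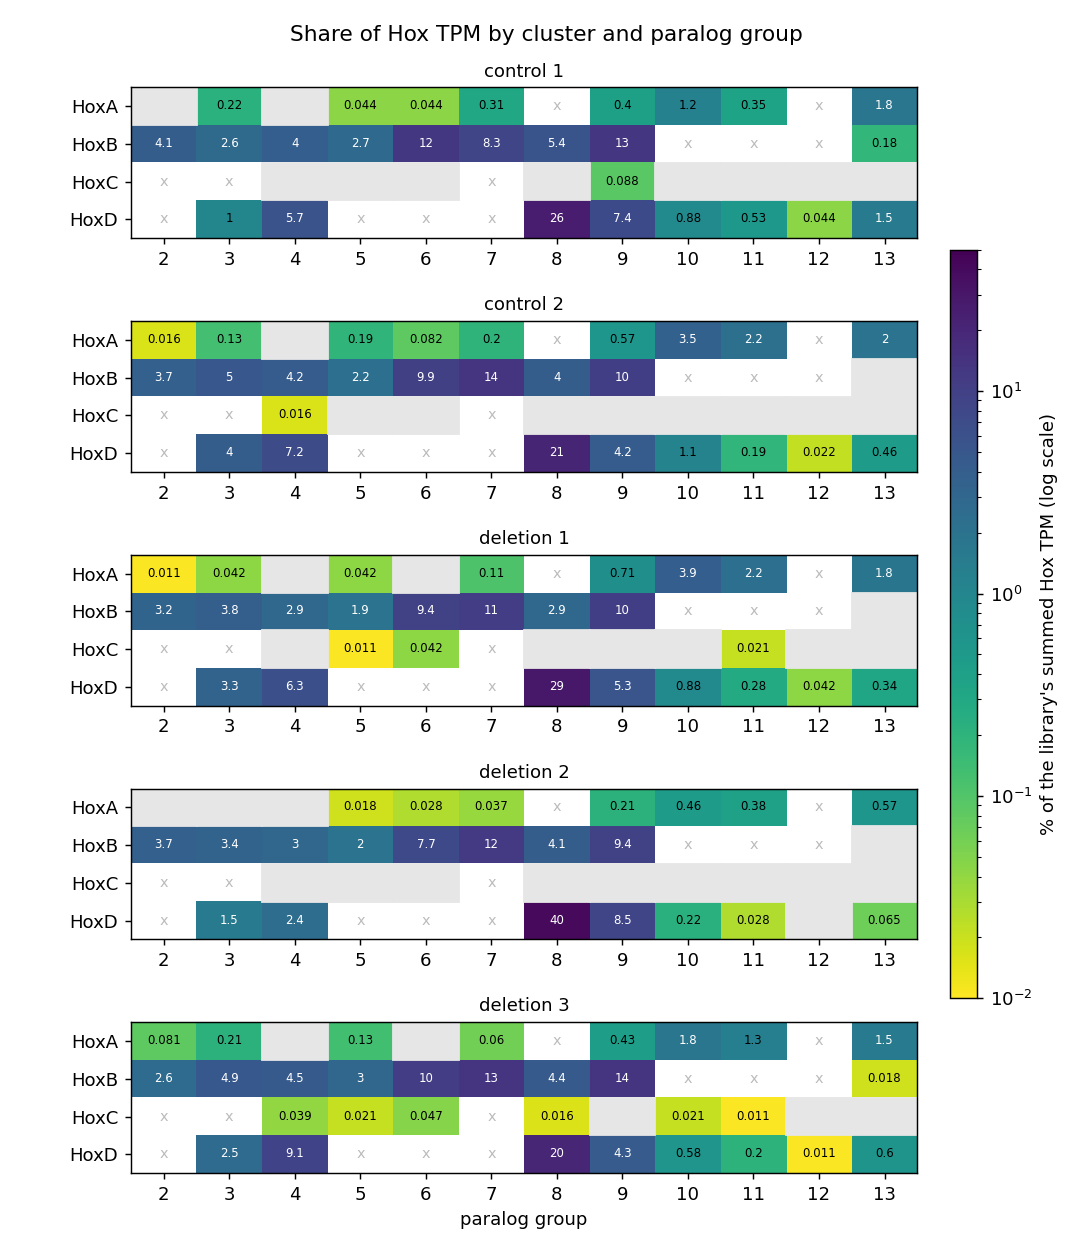
Share of each library's summed Hox TPM, in percent on a log color scale, by cluster (rows) and paralog group from 2 to 13 (columns), with 1 panel per library; grey boxes are genes at 0 or under the color scale and crosses are positions at which the mouse has no gene. Hoxd8 has the highest share in each panel, from 19.7% to 40.4%, and the HoxC row is nearly empty.

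HoxB and HoxD held most of the Hox TPM in every library. HoxB held 52.8% and 53.0% of Hox TPM among controls and 45.3%, 45.1% and 57.3% in the deletion libraries. HoxD held 42.8% and 38.1%, then 45.8%, 53.1% and 37.1%. Together these left little for HoxA, at 4.32% and 8.88% in controls and 8.88%, 1.72% and 5.47% in deletion libraries. HoxC held at most 0.168%, in deletion replicate 3. HoxB was above HoxD in 3 libraries, and HoxD was above HoxB in deletion replicates 1 and 2.

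HoxC (GRCm38 chromosome 15, 102921103 to 103036852) had no member in the tested set. Its 9 genes summed to 6 and 1 counts among controls and to 6, 1 and 31 counts in the deletion libraries, and no single HoxC gene passed 8 counts in any library. Hoxc4 had the 8 counts, in deletion replicate 3. Hoxc12 was at 0 in every library, and Hoxc13 had 2 counts in deletion replicate 3 alone. A floor of 3 counts corresponds to 0.0557 to 0.145 CPM, so levels under that range were not detectable at this depth. The lincRNA Hotair, which is transcribed inside HoxC, had 2 counts in deletion replicate 2 and 0 elsewhere.

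In the comparison of deletion with control libraries, 22 members had enough counts to be tested: 7 of HoxA, 8 of HoxB, 7 of HoxD and none of HoxC. The other 17 had at most 14 counts and 0.556 CPM in any library. With edgeR's quasi-likelihood test and Benjamini-Hochberg adjustment over 18615 genes, 0 of the 22 passed at an adjusted p under 0.05, and 0 of all genes tested did (0%). At an unadjusted p under 0.05, 0 of the 22 members were reached in either direction, against 4.92% of all genes (915), of which 1.69% were higher and 3.23% lower in deletion libraries. DESeq2 called 0 members and 0.899% of the 18233 genes to which it gave an adjusted p, and limma-voom called 0 members and 0% of all genes. Adjusted p-values of the members in edgeR lay between 0.995 and 0.999.

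The fitted fold changes of the members lay on both sides of 0: 11 were higher and 11 lower in deletion libraries, and 50.4% of all tested genes were higher. Their median log2 fold change, deletion minus control, was 0.036, and that of all tested genes was 0.0045. By cluster the medians were -0.32 for HoxA, 0.11 for HoxB and 0.15 for HoxD. The members' SE was 0.615 at the median, and their 95% intervals reached from 0.763 (Hoxb9) to 2.93 (Hoxa3) log2 units to each side of the estimate. Differences smaller than that could not be told from 0 with 2 control and 3 deletion libraries. The intervals are not adjusted for the number of genes, and far larger differences did not pass after adjustment either. Fitted log2 fold changes over all tested genes ran from -13.1 to 12.8, with 0 genes called. The adjusted p-values set the group difference against the spread between these libraries and do not measure that spread.

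**Figure D2:**
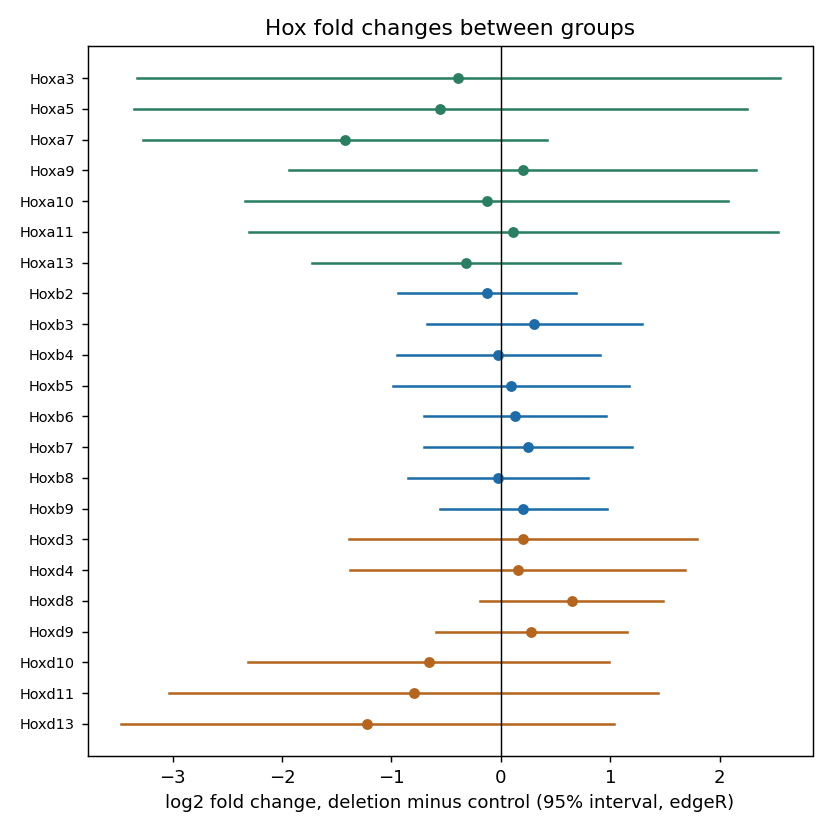
Log2 fold change of each tested Hox gene, deletion minus control, from edgeR (points) with its 95% interval (lines), colored by cluster. Every interval crosses 0, and those of HoxB are the narrowest as a group.

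Groups did not overlap for 2 of the 22 members, 1 in each direction. Across all tested genes, 9.43% had every deletion library above both controls and 10.2% had every one below, 19.6% in all. Counts of 1 among 22 members are too small to set apart from these shares. The higher member was Hoxd8 and the lower one Hoxa7. These counts moved when a library was left out. Without control replicate 1, 8 of 24 tested members were lower (23.0% of all genes) and 2 higher (20.2%). Without control replicate 2, 3 of 23 were lower (28.4%) and 5 higher (27.7%). Without deletion replicate 3, 5 of 20 were lower (18.3%), and without deletion replicate 1 or 2 the lower count was 2 of 22 (15.0% and 14.3%). The higher count without deletion replicate 1 was 2 (15.9%).

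Hoxd8, a HoxD gene of the middle paralog groups, had 51.3 and 65.6 CPM in control libraries and 84.9, 122.78 and 66.9 CPM in deletion replicates 1, 2 and 3. Every deletion library lay above both controls, but deletion replicate 3 exceeded control replicate 2 only narrowly. The means were 58.4 ± 10.1 CPM (SD, n = 2) and 91.5 ± 28.5 CPM (SD, n = 3). Between groups the fitted log2 difference was 0.65, with an SE of 0.349 and a 95% interval of -0.19 to 1.48, and it did not pass the test (edgeR, Benjamini-Hochberg adjusted p = 0.995). Without deletion replicate 2 the difference was 0.38, and scaled by total counts alone the groups of Hoxd8 overlapped. Its neighbor Hoxd9 had 20.1 and 14.9 CPM in control libraries and 17.9, 28.7 and 17.0 CPM in the deletion libraries. The Hoxd9 groups overlapped, with deletion replicate 2 alone above control replicate 1. Its log2 fold change was 0.28 (SE 0.364) and became -0.0039 without deletion replicate 2.

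The HoxB cluster (chromosome 11, 96194316 to 96368256) was the most even in TMM-scaled CPM. Summed over Hoxb2 to Hoxb9, it had 135 and 168.42 CPM in control libraries and 142, 141 and 216 CPM in the deletion libraries, a 1.60-fold range over the 5 libraries. For single HoxB genes, the highest library exceeded the lowest by 1.28-fold (Hoxb2) to 2.25-fold (Hoxb5), with a median of 1.78-fold, while the median over all tested genes was 2.62-fold. Deletion replicate 3 was the highest library for 7 of the 8 genes. These ranges rest on the scaling, whose TMM factors were 0.491 in control replicate 1 and 1.61 in deletion replicate 3. In TPM, all Hox genes together summed to 22.68 in control replicate 1 and to 380.48 in deletion replicate 3.

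Hoxb9, the most posterior of this run and the one with most counts, had 42.5 and 42.8 CPM in controls and 42.7, 39.2 and 65.4 CPM in deletion libraries. 4 of the libraries were nearly level, and deletion replicate 3 stood above them. Its log2 fold change was 0.20 (SE 0.319, 95% interval -0.56 to 0.97), and -0.073 without deletion replicate 3. Hoxb6 had 22.9 and 27.6 CPM in controls and 24.1, 21.0 and 37.6 CPM in deletion libraries. Hoxb7 had 12.8 and 26.9 CPM, then 20.2, 22.0 and 28.4 CPM. In Hoxb6 the groups overlapped, with deletion replicate 2 the lowest and deletion replicate 3 the highest of the libraries. In Hoxb7 the controls spanned most of the range. The log2 fold changes were 0.13 (SE 0.347) for Hoxb6 and 0.25 (SE 0.399) for Hoxb7.

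Hoxb2, the most anterior tested HoxB gene, varied least, with 9.37 and 10.3 CPM in controls and 8.76, 10.1 and 8.04 CPM in deletion libraries. Hoxb8 had nearly equal controls, at 17.4 and 17.6 CPM, and 12.4, 17.4 and 21.8 CPM in deletion libraries. Both controls of Hoxb8 fell inside the range of the deletion libraries. Hoxb4 had 13.2 and 18.2 CPM in controls and 12.2, 12.6 and 21.5 CPM in deletion libraries. Hoxb3 had 8.21 and 15.2 CPM in controls and 13.3, 11.7 and 18.45 CPM in deletion libraries. Hoxb5 had 8.86 and 9.88 CPM in controls and 8.27, 6.67 and 15.0 CPM in deletion libraries. Groups overlapped in all of these, and their log2 fold changes ran from -0.13 (Hoxb2) to 0.31 (Hoxb3). Hoxb1, the most anterior gene of the cluster, had 4 counts in deletion replicate 2 and 0 elsewhere.

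**Figure D3:**
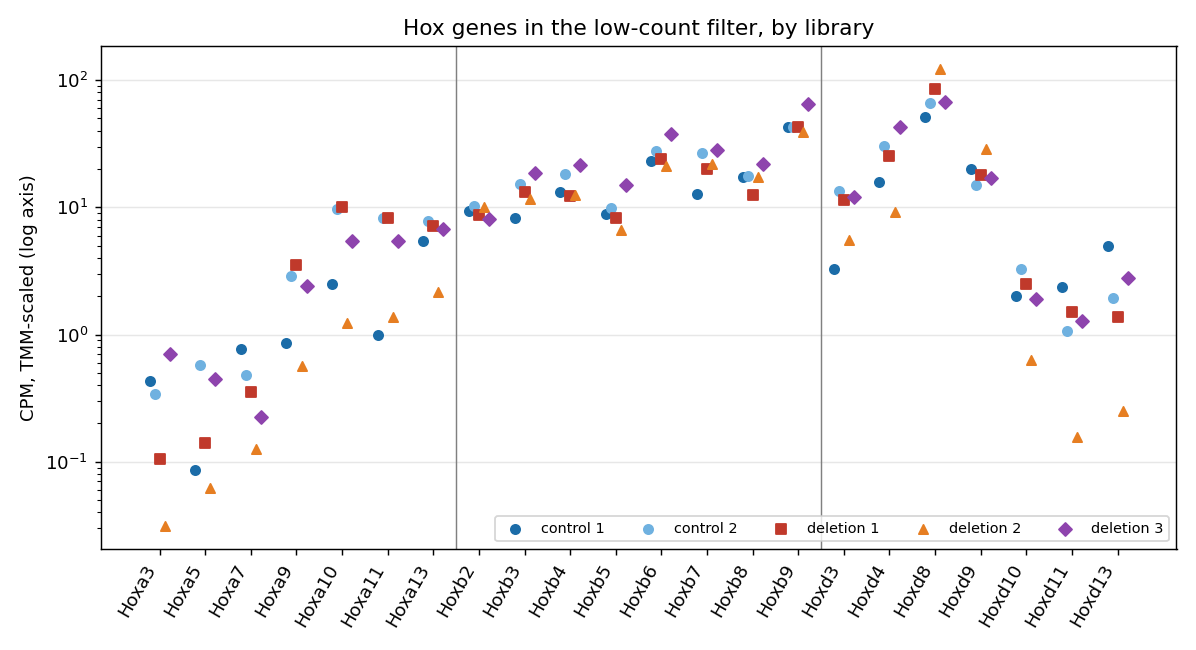
TMM-scaled CPM (log axis) of the 22 tested Hox genes in the 5 libraries, ordered by cluster and paralog group; each point is 1 library. The HoxB points lie close together, while deletion replicate 2 (orange triangles) is the lowest for 6 of the 7 HoxA genes and the highest for Hoxd8 and Hoxd9.

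The posterior HoxA genes (cluster on chromosome 6) varied far more between libraries than between groups. Summed over Hoxa9 to Hoxa13, they had 9.80 and 28.8 CPM in controls and 28.9, 5.32 and 19.99 CPM in deletion libraries, a 5.42-fold range. Control replicate 1 and deletion replicate 2 were low, and the other 3 libraries were high, 1 of them a control. The means were 19.3 ± 13.4 CPM (SD, n = 2) in controls and 18.1 ± 11.9 CPM (SD, n = 3) in deletion libraries.

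Hoxa10, known for its part in the development of the reproductive tract, had 2.48 and 9.73 CPM in controls and 10.1, 1.22 and 5.44 CPM in deletion libraries. Hoxa10 had a log2 fold change of -0.13 (SE 0.922, with a 95% interval of -2.34 to 2.07). Hoxa11, also a gene of the reproductive tract and limb, had 0.984 and 8.28 CPM in controls and 8.20, 1.38 and 5.44 CPM in deletion libraries. In both genes control replicate 1 and deletion replicate 2 were the 2 low libraries. The log2 fold change of Hoxa11 was 0.11 (SE 1.01) and turned to -0.080 when libraries were scaled by total counts alone. It reached 2.34 without control replicate 2 and -0.73 without control replicate 1. Without control replicate 2, that of Hoxa10 was 1.16, and neither passed the test (edgeR with Benjamini-Hochberg adjustment).

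Hoxa13, the most posterior HoxA gene, had 5.48 and 7.84 CPM in controls and 7.11, 2.16 and 6.72 CPM in deletion libraries. Here deletion replicate 2 alone was low, and control replicate 1 was nearer to the other libraries. It had a log2 fold change of -0.32 (SE 0.589), and 0.056 without deletion replicate 2. Hoxa9 followed Hoxa10, with 0.856 and 2.90 CPM in controls and 3.50, 0.564 and 2.39 CPM in deletion libraries.

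Posterior HoxD genes (cluster at chromosome 2, 74668310 to 74765142) lay in a different order. Hoxd10 to Hoxd13 summed to 9.50 and 6.39 CPM in controls and to 5.54, 1.03 and 6.03 CPM in deletion libraries. Control replicate 1, low in the posterior HoxA genes, was here the highest, while deletion replicate 2 was again the lowest. The means were 7.94 ± 2.197 CPM (SD, n = 2) and 4.20 ± 2.75 CPM (SD, n = 3). Both controls exceeded all 3 deletion libraries in this TMM-scaled sum, control replicate 2 only narrowly so against deletion replicate 3. Scaled by total counts alone, deletion replicate 3 (325 counts) lay above control replicate 1 (222 counts), so the groups overlapped. The sum was formed with the values known and was not tested.

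Hoxd13, the most posterior HoxD gene, had 4.96 and 1.94 CPM in controls and 1.37, 0.251 and 2.78 CPM in deletion libraries. Deletion replicate 3 lay between the controls, so the groups overlapped. Hoxd13 had a log2 fold change of -1.22 (SE 0.942, with a 95% interval of -3.48 to 1.03) and did not pass (edgeR, Benjamini-Hochberg adjusted p = 0.995). Leaving out control replicate 1 gave -0.39, deletion replicate 2 gave -0.73 and deletion replicate 3 gave -2.10, and total counts only gave -0.40. Hoxd11 had 2.35 and 1.07 CPM in controls and 1.51, 0.157 and 1.28 CPM in deletion libraries. Hoxd10 had 2.01 and 3.29 CPM in controls and 2.49, 0.626 and 1.91 CPM in deletion libraries. Deletion replicate 2 was the lowest library for both, and the remaining deletion libraries overlapped the controls. The log2 fold changes were -0.80 (SE 0.934) for Hoxd11 and -0.66 (SE 0.689) for Hoxd10. For Hoxd11, leaving out control replicate 1 gave -0.12, deletion replicate 2 gave -0.30, control replicate 2 gave -1.26 and deletion replicate 1 gave -1.21, and total counts only gave -0.15. For Hoxd10, leaving out control replicate 2 or deletion replicate 2 gave -0.27, and deletion replicate 1 gave -1.04. Hoxd12 had between 0 and 5 counts per library.

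Hoxd3 and Hoxd4, the anterior HoxD genes that were expressed, had the low pair of libraries seen in HoxA. Hoxd4 had 15.9 and 30.5 CPM in controls and 25.4, 9.15 and 42.8 CPM in deletion libraries. Hoxd3 had 3.29 and 13.5 CPM in controls and 11.4, 5.51 and 12.1 CPM in deletion libraries. In both genes control replicate 1 and deletion replicate 2 were the 2 lowest. The log2 fold changes were 0.15 (SE 0.640) for Hoxd4 and 0.20 (SE 0.665) for Hoxd3, and that of Hoxd4 was -0.44 without deletion replicate 3. Hoxd3 and Hoxd4 are uncertain as separate genes. The read-through gene Gm28230 covers 53.1% of the exon bases of Hoxd3 and 39.1% of those of Hoxd4, and had 6.85 and 9.39 CPM in controls and 12.5, 2.19 and 11.3 CPM in deletion libraries. In all, 16 members share exon bases with another gene, 11 of them tested. Among these are Hoxb3, with 52.9% of its exon bases inside antisense Hoxb3os, and Hoxa11, with 34.98% inside antisense Hoxa11os. Whether the counting used strand is not given in the sources used here. Reads of such partners therefore cannot be assigned with certainty.

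Anterior HoxA genes were near the detection limit. Hoxa7, a gene of the middle of the cluster, had 18 and 10 counts in controls and 10, 4 and 12 counts in deletion libraries. That is 0.770 and 0.484 CPM against 0.350, 0.125 and 0.223 CPM, with every deletion library below both controls. This made a log2 fold change of -1.42 (SE 0.773, 95% interval -3.27 to 0.42), which did not pass (edgeR, Benjamini-Hochberg adjusted p = 0.995). Hoxa3 had 0.428 and 0.339 CPM in controls and 0.105, 0.0313 and 0.705 CPM in deletion libraries. Hoxa5 had 0.0856 and 0.581 CPM in controls and 0.140, 0.0626 and 0.445 CPM in deletion libraries. The groups of Hoxa3 and Hoxa5 overlapped, and some of these values rest on fewer than 5 counts. Hoxa2 had 14 counts in deletion replicate 3 and at most 1 elsewhere, and Hoxa6 had at most 2 in any library. Hoxa4 was at 0 in every library, as Hoxc12 was. Hoxd1, the most anterior HoxD gene, had 0 and 10 counts in controls and 0, 4 and 8 in deletion libraries.

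Of the 4 paralog group 13 genes, Hoxb13, the one known as a prostate marker, was almost absent. Its counts were 13 (0.556 CPM) and 0 among controls, against 0, 1 and 4 with the deletion. Control replicate 1 was also the library with 411 counts of Pbsn, and was the highest library for Hoxd13 and Hoxd11. Evx2, the homeobox gene beside Hoxd13, had 36 and 5 counts in controls and 1, 1 and 13 in deletion libraries. Hottip, a lincRNA at the posterior end of HoxA that was singled out after its values were seen, had 38 and 6 counts in controls and 4, 0 and 8 in deletion libraries. In both, control replicate 1 was the highest. In TMM-scaled CPM, each deletion library was below both controls for both genes, as for 10.2% of all tested genes. Hottip stood at 1.63 and 0.290 CPM without the deletion and at 0.140, 0 and 0.148 CPM with it. Evx2 was separate by a narrow margin, with 0.24205 CPM in the lower control and 0.2413 CPM in the highest deletion library. Hottip had a log2 fold change of -3.23 (SE 1.23) and did not pass (edgeR, Benjamini-Hochberg adjusted p = 0.991). The fitted log2 fold change of Evx2 was -2.97 (SE 1.18; edgeR, Benjamini-Hochberg adjusted p = 0.991), and leaving out control replicate 1 gave -1.12 while leaving out deletion replicate 3 gave -4.58. With total counts only it was -1.89. The group 13 genes held 3.48% and 2.43% of Hox TPM in controls, against 2.19%, 0.646% and 2.14% with the deletion. The part of prostate tissue in these values was not tested.

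Deletion replicate 2 was the lowest library for 13 of the 22 tested members, 6 of them in HoxA, and deletion replicate 3 was the highest for 9. These 2 counts have no share over all tested genes beside them, so they cannot be read as particular to Hox genes. Deletion replicate 2 was also the lowest for 10 of 10 fibroblast and 7 of 8 smooth muscle markers, but for 0 of 7 luminal epithelial ones. The 2 lowest libraries were control replicate 1 and deletion replicate 2 for 10 of 22 members (45.5%), against 16.1% of all tested genes, a count made after the values were seen. The 10 were Hoxa5, Hoxa9, Hoxa10, Hoxa11, Hoxa13, Hoxb3, Hoxb6, Hoxb9, Hoxd3 and Hoxd4. Median ranges over the 5 libraries were 8.23-fold for the HoxA members, 4.68-fold for HoxD and 1.78-fold for HoxB.

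Markers of smooth muscle and fibroblasts, the stromal cells of these glands, also varied between libraries. The 8 smooth muscle genes (such as Acta2 and Myh11) summed to 2024 and 3616 CPM in controls and to 5366, 1438 and 3318 CPM in deletion libraries. For 6 of the 8, control replicate 1 and deletion replicate 2 were the 2 lowest libraries, as for the posterior HoxA genes. The 10 fibroblast genes summed to 410 and 615 CPM in controls and to 304, 102 and 253 CPM in deletion libraries, and deletion replicate 2 was lowest for 10 of 10. Control replicate 1 and deletion replicate 2 were the 2 lowest for only 4 of these 10. Both groups' sums were separate for the fibroblast genes, with all 10 fitted folds negative, where 50.4% of all tested genes were higher. Every deletion library was below both controls for 6 of the 10, against 10.2% of all tested genes. All tested markers of endothelium (7), macrophages (7), T cells (6) and basal epithelium (5) were lower too. Smooth muscle had 4 of 8 lower, luminal epithelium 4 of 7, and all 5 tested skeletal muscle markers were higher. No smooth muscle or fibroblast marker was at 0 in any library. The 7 luminal epithelial genes summed to 1071 and 1538 CPM in controls and to 940, 1997 and 1860 CPM in deletion libraries, highest in deletion replicate 2, where Hoxd8 and Hoxd9 were also highest. Control replicate 1 and deletion replicate 2 were also the 2 highest libraries in the seminal vesicle sum, at 718840 and 341370 CPM. That sum was 18549 CPM in control replicate 2 and 274350 and 8845.5 CPM in deletion replicates 1 and 3. The part of cell composition in the Hox values was not tested.

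**Figure D4:**
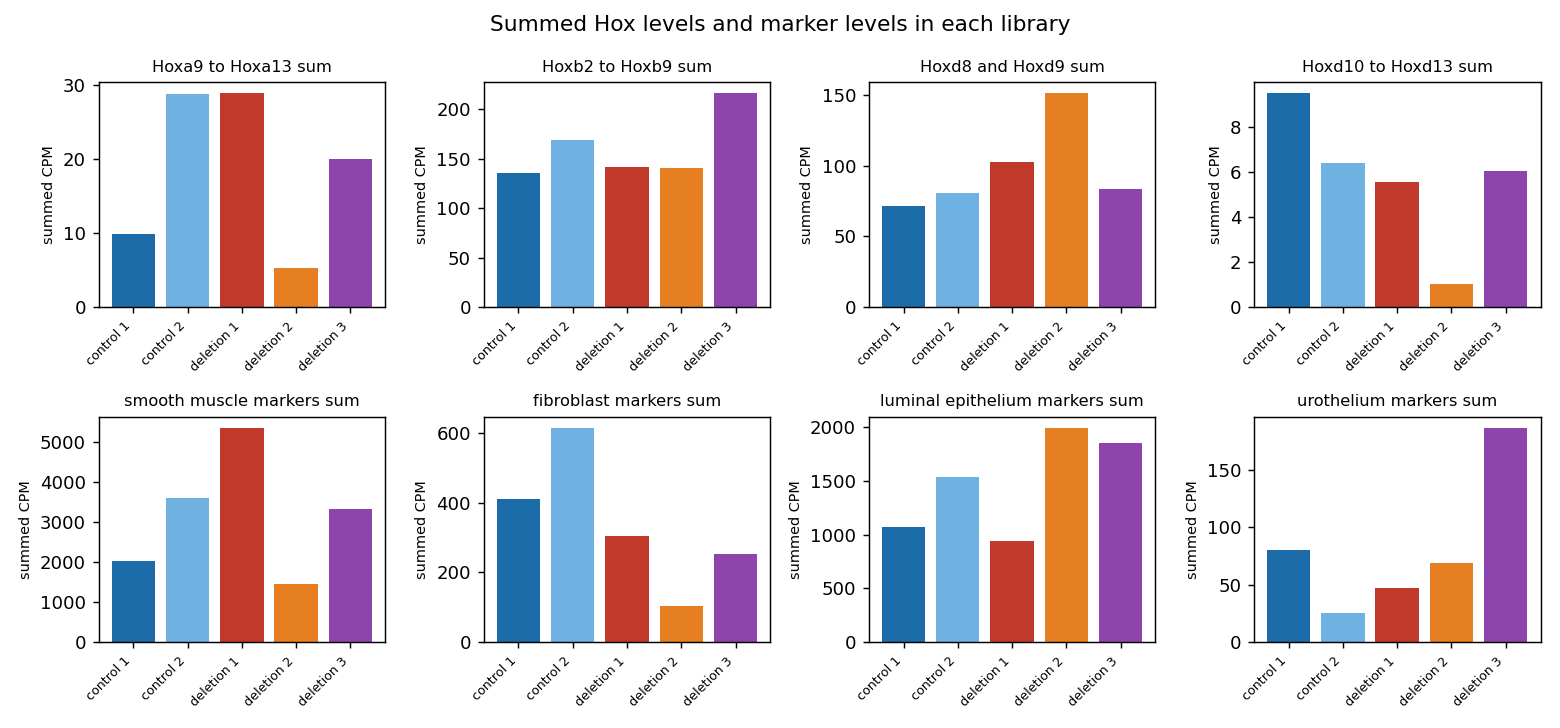
Summed TMM-scaled CPM per library (bars, each panel with its own axis from 0) of 4 sets of Hox genes (top) and 4 sets of cell type markers (bottom). The Hoxa9 to Hoxa13 sum and the smooth muscle sum are both lowest in control replicate 1 and deletion replicate 2 (9.80 and 5.32 CPM for HoxA), and the urothelial sum is highest in deletion replicate 3, as is the HoxB sum.

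Deletion replicate 3, the highest library for 7 of 8 HoxB genes, also differed in urothelial markers. Upk3a, a uroplakin of the bladder and urethral lining, had 1046 counts there and 0 in the other 4 libraries, and Krt20 had 1229 counts there and at most 1 elsewhere. The 6 urothelial genes summed to 80.0 and 25.2 CPM in controls and to 47.0, 68.4 and 187 CPM in deletion libraries. None of the 6 was at 0 in deletion replicate 3, and 2 or 3 were at 0 in each of the others. With control replicate 1 and deletion replicate 3 both left out, 16 of 21 tested members had deletion libraries below the remaining control (35% of all genes) and 2 above (32.8%). Their median log2 fold change was then -0.52, against 0.022 for all genes, with 0 members called by edgeR at an adjusted p under 0.05 and 0 at an unadjusted p under 0.05. That comparison has 1 control, whose spread is assumed to equal that of the others. Over all 22 tested members, deletion replicate 3 was the highest library for 9, and control replicate 1 was the lowest for 5 and the highest for 3. Leaving out this pair therefore favors lower fitted folds by itself, and no decrease can be read from it. The part of urothelium in the HoxB values was not tested.

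Hox proteins bind DNA together with TALE homeodomain cofactors of the Pbx, Meis and Pknox families. Of 9 such genes, 8 were tested, with 5 fitted folds higher and 3 lower, a median log2 fold change of 0.24 and none called. Meis2, a cofactor that also binds DNA itself, had 9.198 and 31.5 CPM in controls and 33.4, 8.68 and 31.8 CPM in deletion libraries. Meis2 thus had the same low libraries as Hoxa10 and Hoxa11. Meis3 had 8.43 and 1.84 CPM in controls and 2.80, 1.85 and 2.30 CPM in deletion libraries, so control replicate 1 stood alone. Its log2 fold change was -1.15, and 0.33 without that library. Pbx2 was level, at 23.0 and 17.0 CPM in controls and 16.6, 17.1 and 18.8 CPM in deletion libraries.

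Polycomb complexes keep Hox genes silent outside their domains, and Trithorax proteins keep them active. All 29 Polycomb genes were tested, with 18 fitted folds higher, 11 lower, a median of 0.098 and none called. Rbbp7, Rbbp4 and Cbx6 had the highest mean TPM. Cbx7, a chromobox protein of Polycomb complex 1, had 12.5 and 43.9 CPM in controls and 72.8, 68.9 and 75.0 CPM in deletion libraries. The deletion libraries were level and above both controls. Its log2 fold change was 1.36 and did not pass (edgeR, Benjamini-Hochberg adjusted p = 0.991). Leaving out control replicate 1 gave 0.72, and leaving out control replicate 2 gave 2.53. Phf19 had 21.6 and 2.57 CPM in controls and 4.84, 1.03 and 0.872 CPM in deletion libraries, a fold of -2.44 on the log2 scale (edgeR, Benjamini-Hochberg adjusted p = 0.991) that was -0.20 without control replicate 1, -1.61 with total counts only and -3.64 without deletion replicate 1.

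All 14 Trithorax genes were tested, with 5 fitted folds higher, 9 lower, a median of -0.076 and none called. Psip1, Kmt2c and Ash1l had the highest mean TPM. Dot1l, a histone H3 methyltransferase, had 24.9 and 13.5 CPM in controls and 10.8, 7.30 and 9.74 CPM in deletion libraries. Every deletion library was below both controls, with control replicate 1 the highest. The log2 fold change of Dot1l was -1.05 (edgeR, Benjamini-Hochberg adjusted p = 0.991), and it was -0.54 without control replicate 1 and -0.57 with total counts only. Psip1 had 75.3 and 62.2 CPM in controls and 136, 149 and 67.4 CPM in deletion libraries, and its groups overlapped through deletion replicate 3.

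Retinoic acid is a classical inducer of Hox genes, and its synthesis, binding and breakdown were listed in 18 genes, of which 14 were tested. Fitted folds were higher for 8 and lower for 6, with a median of 0.46 and none called by edgeR. At an unadjusted p under 0.05 there were 6 higher (Crabp2, Rarb, Rxra, Rdh10, Cyp26b1 and Dhrs3) and 1 lower (Aldh1a2), names given after their values were seen, where 1.69% of all tested genes were higher and 3.23% lower. These 6 had all deletion libraries above both controls, as had 9.43% of all tested genes. Lower were Aldh1a2 and Stra6, against 10.2% of all tested genes. Crabp2, which carries retinoic acid to its nuclear receptors, had 0.214 and 2.18 CPM in controls and 23.1, 35.9 and 4.36 CPM in deletion libraries. All 3 deletion libraries were above the controls, deletion replicate 3 by the least. The log2 fold change of Crabp2 was 4.15 (SE 1.27; edgeR, Benjamini-Hochberg adjusted p = 0.991), and DESeq2 gave an adjusted p of 0.012. Without control replicate 2 the log2 fold change was 6.60.

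Rarb, a retinoic acid receptor whose gene is itself induced by retinoic acid, had 3.17 and 4.07 CPM in controls and 6.45, 7.86 and 9.76 CPM in deletion libraries. Cyp26b1, an enzyme that degrades retinoic acid, had 1.93 and 3.15 CPM in controls and 4.63, 12.0 and 4.71 CPM in deletion libraries. Aldh1a2, an enzyme that makes it, had 3.72 and 6.97 CPM in controls and 2.00, 0.908 and 1.23 CPM in deletion libraries. Aldh1a2 was separate between groups in the opposite direction to Rarb and Cyp26b1. The log2 fold changes were 1.15 for Rarb, 1.49 for Cyp26b1 and -1.96 for Aldh1a2, each with a Benjamini-Hochberg adjusted p of 0.991 in edgeR. Aldh1a1, Dhrs3 and Rdh10 had the highest mean TPM of the list. Markers of vas deferens and epididymis were, like Crabp2, highest in deletion replicates 1 and 2, with summed levels of 225 and 1974 CPM in controls and 5645, 5044 and 90.3 CPM in deletion libraries. Their part in the retinoic acid values was not tested. Of the ParaHox and Evx genes, the cluster relatives of Hox, Cdx1, Cdx2, Cdx4, Pdx1, Gsx1 and Gsx2 were at 0 in every library, and Evx2 alone was tested.

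**Figure D5:**
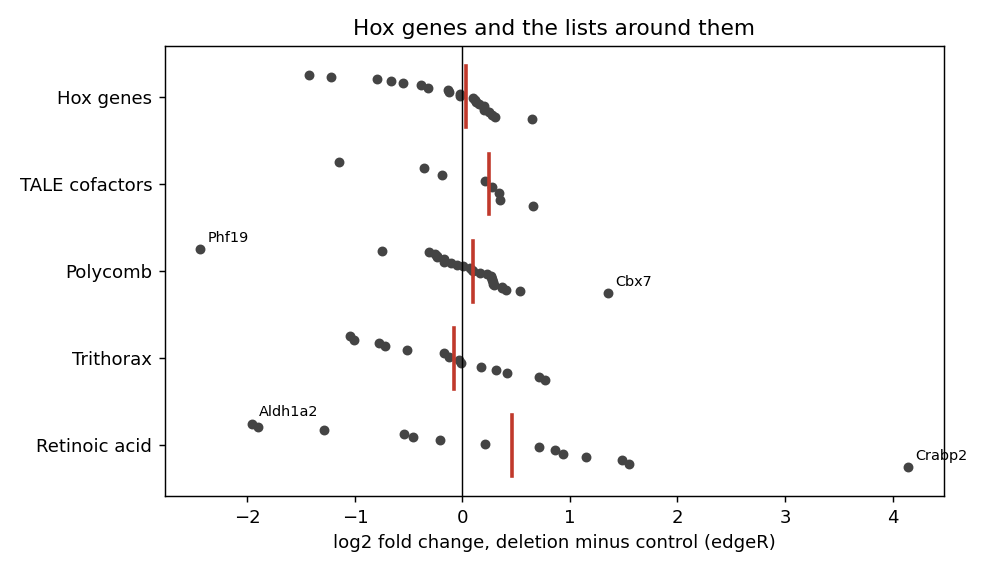
Log2 fold changes, deletion minus control, from edgeR for the tested Hox genes and for 4 lists of cofactors and regulators (points are genes, red bars are medians). The Hox median is 0.036, the retinoic acid list has the widest spread with Crabp2 at 4.15, and no gene passed at an adjusted p under 0.05.

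Another 48 genes in the files that do not code for protein lie in the clusters or within 10000 bases of them. Of these, 25 were at 0 in every library. A mean of at least 1 CPM was reached by 6. Gm53, in HoxB, was the highest in CPM, with 26.8 and 15.6 CPM in controls and 12.1, 15.1 and 22.0 CPM in deletion libraries. Hoxa11os, antisense to Hoxa11, had 5.30 and 4.41 CPM in controls and 6.45, 0.877 and 2.52 CPM in deletion libraries. It shared the low deletion replicate 2 with Hoxa11 but not the low control replicate 1. Hoxd3os1, whose span includes the Hoxd8 promoter on the other strand, had 5.30 and 5.23 CPM in controls and 6.45, 7.14 and 8.93 CPM in deletion libraries. All deletion libraries of Hoxd3os1 were above both controls, as for Hoxd8 and 9.43% of all tested genes. Its log2 fold change was 0.51 (SE 0.383; Benjamini-Hochberg adjusted p = 0.995 in edgeR). Scaled by total counts alone, the groups of Hoxd3os1 overlapped. Haglr had 1.03 and 2.76 CPM in controls and 2.70, 1.53 and 3.16 CPM in deletion libraries. The groups of Haglr, Hoxb3os (0.726 to 2.87 CPM) and 9530018H14Rik (0.689 to 1.54 CPM) overlapped. Of 7 miRNA hairpin genes in the clusters, 6 were at 0 in every library.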

How the data were processed

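Per the labels' protocols, libraries of 5 mice were prepared with a TruSeq kit for stranded total RNA. Base calling with bcl2fastq 2.20.422, alignment with STAR 2.5.3a to GRCm38 and quantification with RSEM 1.3.0 are taken from the submitters' processing notes, which name the tools. For the annotation release and strand setting, nothing is given in the sources used here. Per the file headers, the authors deposited RSEM expected counts, which are unnormalized estimates and can be fractional. They also deposited TPM, which are per effective length and relative to all genes of the library.

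Groups came from the sample titles. Symbols were matched for 99.5% of gene IDs (279 unmatched), and positions are from GENCODE M21. Expected counts were rounded and fitted over all 5 libraries with edgeR 4.0.16 in R 4.3.3 (filterByExpr, TMM, robust quasi-likelihood fit, Benjamini-Hochberg adjustment over 18615 genes). The TMM factors ran from 0.491 to 1.61. DESeq2 1.42.0 and limma 3.58.1 were alternatives, with other scalings, no filter, left-out libraries and a replicate block. Posterior shares were computed from TPM and again from counts over effective length. The floor of 3 counts covers counting error only, because no molecular identifiers mark independent molecules, and intervals of fold changes cover the spread between libraries.

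The members and all gene lists were chosen with earlier results of these data known. Named were all tested members, the group 13 genes, the members and list genes of highest mean TPM, list genes of smallest p in each direction, and non-coding cluster genes with a mean of at least 1 CPM. Others are named as chosen after their values were seen: Hottip, Hotair, the further retinoic acid genes and single examples such as Hoxc4, Acta2, Upk3a and Krt20. Some genes that this rule names are not reported here.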

Additional observations from a re-analysis of the deposited data

How the results depend on the processing

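No Hox gene was called under any of the alternatives run, whichever the scaling, filter, tool, block or left-out library, although 164 genes were called by DESeq2, 85 without control replicate 1 and deletion replicate 3, 48 without control replicate 2 and 46 with total counts only. The direction of 9 of the named genes below turned when a single library was left out. Leaving out 1 library moved the members' median log2 fold change between -0.23 and 0.22, the number of members with all deletion libraries below the controls between 2 and 8, and the number above between 1 and 5. Scaling by total counts moved the median of all genes to 0.23, left 0 members above and gave Hoxa11 -0.080. With no low-count filter 2 members were below. Without control replicate 1 and deletion replicate 3, 16 were below, 2 above, and the median was -0.52, but leaving out this pair favors lower folds by itself.

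Left-out libraries turned the direction of Hoxa10 (-0.85 to 1.16), Hoxa11 (-0.73 to 2.34), Hoxa13 (-0.57 to 0.056), Hoxb6 (-0.18 to 0.29), Hoxb7 (-0.19 to 0.87), Hoxb9 (-0.073 to 0.34), Hoxd4 (-0.44 to 0.70), Hoxd9 (-0.0039 to 0.51) and Meis3 (-1.86 to 0.33). Those of Hoxd8, Hoxa7, Hoxd10, Hoxd11, Hoxd13, Aldh1a2, Cbx7, Crabp2 and Dot1l kept their sign in each such fit. The cause of these turns was not tested. The posterior share of Hox TPM without each library's highest member was 33.8% in controls and 33.6% in deletion libraries, since that member, Hoxd8, is outside groups 9 to 13. With single libraries left out it was 24.4% to 27.3% and 22.3% to 25.3%.

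A replicate block over replicates 1 and 2 of both groups, which also leaves out deletion replicate 3, gave 5 members below of 20 tested, and -0.17 for Hoxb6, -0.074 for Hoxb9 and -0.54 for Hoxd4. Leaving out deletion replicate 3 with no block already gave 5 below and -0.18, -0.073 and -0.44, so these turns are not the block's. Hoxd13 alone reached an unadjusted p under 0.05, and no member was called. The labels do not say that numbers pair animals, and deviations of same-numbered libraries correlated at 0.18 and -0.14 across genes. DESeq2 called Crabp2 (4.17, adjusted p = 0.012), which edgeR did not.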
